A study of Mus musculus with 6 samples.

Results

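The Sprouty, Spred and Sef genes encode intracellular and membrane inhibitors of receptor tyrosine kinase signalling, and their transcripts were measured here in PA6 cells after 3 h with or without a growth factor. The members were taken by name. They are SPRY2, SPRY4, SPRED1, SPRED2 and IL17RD (the gene of Sef), and every probe whose gene symbol in the signal table was one of these names was used. This gave 5 genes of the 30854 gene names on the array and 8 probes of 45281. PA6 is a murine bone marrow stromal line, used by the study as the feeder layer on which embryonic stem cells become endothelium, and the wells analysed here held PA6 cells alone. Confluent monolayers were kept in medium free of serum, to which no growth factor was added (-GFs), 20 ng/ml of recombinant FGF2 was added, or 10 ng/ml of recombinant BMP4 was added (dose per the labels), for 3 h in each case. Each of the 3 groups had 2 biological replicates with 1 well and 1 array each, and a replicate consisted of an untreated, an FGF2 and a BMP4 well. All wells were of a single cell line that carried no genetic change, so the measurements describe this line only.

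Fibroblast growth factors bind receptor tyrosine kinases, which recruit the docking protein FRS2 and the adaptors GRB2 and SOS and so switch on RAS, RAF, MEK and ERK. ERK activity induces transcription of its own inhibitors. Sprouty proteins interfere upstream of RAS and RAF, Spred proteins bring the RAS GTPase activating protein neurofibromin to the membrane, and Sef is a transmembrane protein that holds active MEK and ERK away from the nucleus. BMP4 acts through serine/threonine kinase receptors and SMAD proteins, and it served as the second growth factor of the study.

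Promoter sequence is shown for the pair of Spred genes because one of them carried the largest response among the members and its paralog stayed undetected. RefSeq promoters of GRCm38.p6 were found for 4 of the 5 members, and SPRY4 had no entry. Each sequence is the 250 bases before the transcription start, read 5′ to 3′ on the gene's strand, which is + for both. Capitals mark the core of the ETS factor site, GGAA, on either strand, so that TTCC is the same core on the opposite strand. SPRED1 lies at chr2:117120821-117121070 and SPRED2 at chr11:19924192-19924441.
SPRED1: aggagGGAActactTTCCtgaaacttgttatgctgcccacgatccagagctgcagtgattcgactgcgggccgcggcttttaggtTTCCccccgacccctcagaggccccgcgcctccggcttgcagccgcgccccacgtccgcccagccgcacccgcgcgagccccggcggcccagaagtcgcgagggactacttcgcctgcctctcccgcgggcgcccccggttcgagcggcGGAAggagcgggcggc
SPRED2: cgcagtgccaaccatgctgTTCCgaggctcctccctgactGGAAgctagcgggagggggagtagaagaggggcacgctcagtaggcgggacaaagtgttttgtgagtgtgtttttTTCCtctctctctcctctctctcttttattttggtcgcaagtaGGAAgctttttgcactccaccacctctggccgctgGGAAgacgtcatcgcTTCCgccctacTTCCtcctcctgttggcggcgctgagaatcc

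The GGAA core occurred 4 times before SPRED1, 7 times before SPRED2, 3 times before SPRY2 and 4 times before IL17RD. It was present in 93.4% of the 32851 promoters of the table, so its presence does not set the members apart. The longer ETS site CCGGAAGT, held by 2.88% of promoters, was absent from the windows of all 4 matched members. The same was true of the AP-1 site TGANTCA (N being C or G, 4.46% of promoters), the full cAMP response element TGACGTCA (1.55%), the EGR sites GCGTGGGCG (0.536%) and GCGGGGGCG (2.57%), the CArG box of the serum response factor (1.47%) and TATAAA (12.4%). TGACG, a shorter part of the cAMP response element, occurred once before SPRED2 and in 17.8% of promoters. The sequence GGCGCC, a SMAD site of BMP target genes, occurred once before SPRED1 and in 9.59%. Motifs were searched on both strands, and TGACGTCA contains TGACG while CCGGAAGT contains GGAA. The SPRED1 window held 70.8% G and C and that of SPRED2 56%. These are matches of letters within 250 bases and say nothing of binding.

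A probe was called detected on an array when its detection p, the chance of such a brightness among the negative control beads, was under 0.05. Between 15509 and 16459 probes were detected on an array, the median intensity was 153.4 to 168.1, and the dimmest detected probe had 180.1 to 200.9. The 10 stromal markers checked (among them COL1A1, COL3A1, VIM and CXCL12) were detected on all 6 arrays. Of the stem cell markers, NANOG, SOX2 and ZFP42 were undetected on every array, while POU5F1 was detected on all 6 and DPPA5 on 3. Of the endothelial markers, CDH5, PECAM1 and TIE1 were undetected, TEK was detected on all 6 arrays and KDR on 4, and of 5 blood markers CSF1R was detected on 5 arrays and the other 4 on none.

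Of the 5 members, 3 were measured and 2 were not. SPRED1 and IL17RD were detected in every group, SPRY4 on the FGF2 arrays alone, and SPRY2 and SPRED2 nowhere. Detection on both arrays of at least 1 group was the condition for a test, and 4 of the 8 probes met it. The pattern in brief was a rise of SPRED1 with FGF2, a smaller difference of SPRY4 that lies near the background of the array, no change of IL17RD past the test, and no called difference of any member with BMP4. The plot of all 8 probes by array shows these values.

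**Figure D1:**
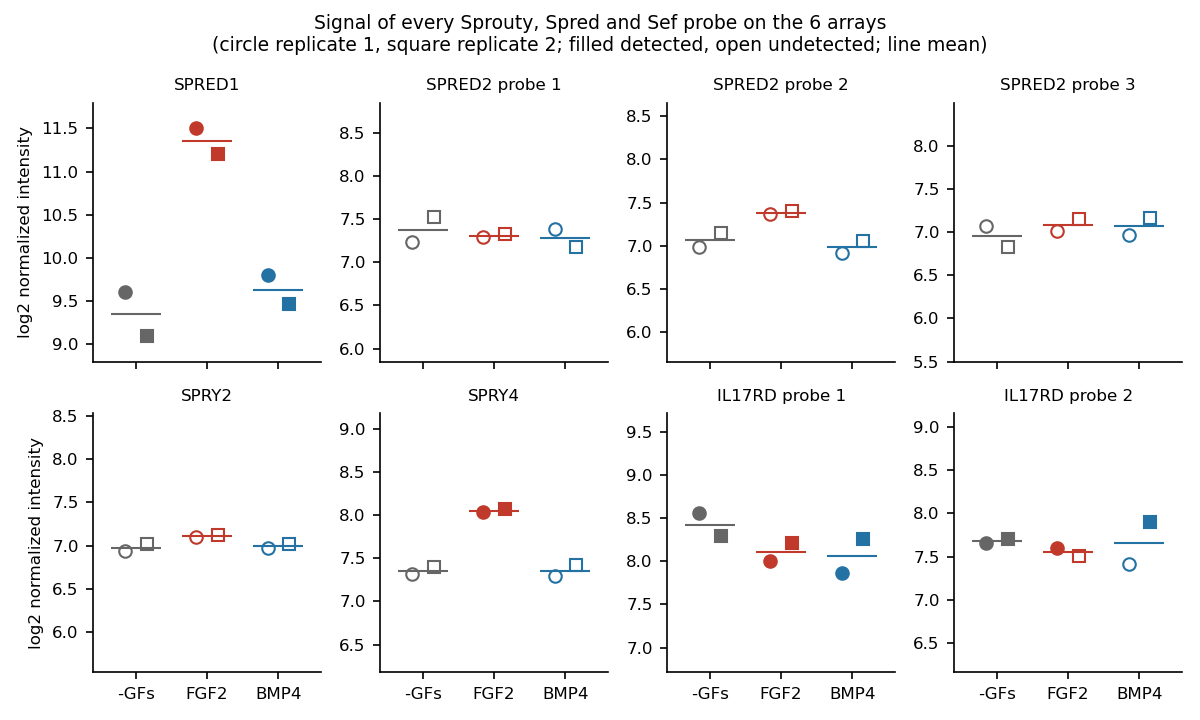
Log2 normalized intensity (vertical axis, 3 log2 units tall in each panel) of the 8 probes in the 2 arrays of each group, with replicate 1 as circles, replicate 2 as squares, detected values filled and lines at the group means. The FGF2 arrays of SPRED1 (log2 11.50 and 11.21) and SPRY4 (8.03 and 8.07) stand above the other 4 arrays, whereas the SPRY2 and SPRED2 panels hold open symbols only.

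SPRED1, the Spred protein that recruits neurofibromin to RAS, had intensities of 902.5 and 516.1 in the -GFs replicates 1 and 2. In the FGF2 replicates it had 2869.3 and 2266.6, and in the BMP4 replicates 837.1 and 713.1. Both FGF2 arrays were above all 4 others, while the BMP4 intensities lay between those of the -GFs pair. After normalization the group means were log2 9.35 ± 0.36 in -GFs, 11.35 ± 0.21 with FGF2 and 9.63 ± 0.24 with BMP4 (SD, n = 2 each). The order of levels was thus FGF2, BMP4, -GFs, and the lower pair in this order differed by less than the SD of the -GFs arrays.

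SPRED1 rose 3.99-fold with FGF2 over -GFs, a log2 fold change of 2.0 with a 95% interval of 1.46 to 2.54 (limma, adjusted p = 0.00892). The rise was 1.89 within replicate 1 and 2.11 within replicate 2 on the log2 scale. A gene was called when its log2 fold change was over 1 in size and its adjusted p under 0.1, and 2.28% of the 11872 genes tested were called as higher with FGF2, SPRED1 being the only one of the 3 members tested. Only 31 genes, 0.261% of those tested, had a larger rise. The median size of the log2 change over all genes was 0.24. As a place among the probes of its own array, the SPRED1 probe stood at percentile 85.85 and 82.7 in -GFs, 94.9 and 93.8 with FGF2, and 87.0 and 85.0 with BMP4.

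The summed intensity of the 10 stromal markers was 122271.3 to 131820.6 on the FGF2 arrays, against 162771.5 to 186945.3 in -GFs and 150172.8 to 172779.8 with BMP4, and its part in the SPRED1 values was not tested. The summed stem cell markers ran from 1363.6 to 1436.9 in -GFs, 1323.9 to 1360.7 with FGF2 and 1401.8 to 1510.2 with BMP4, the endothelial ones from 1355.4 to 1364.5, 1348.8 to 1365.7 and 1266.9 to 1596.4, and the blood ones from 1472.2 to 1623.5, 1505.8 to 1599 and 1454.4 to 1591. In none of these 3 sums was the FGF2 pair above the other 4 arrays. Most markers in them were undetected on every array (3 of 5, 3 of 5 and 4 of 5 in this order). These sums, taken before normalization, thus rest largely on undetected signal and could show little of a change in such cells. In RNA from whole wells, fewer cells of a type and less RNA per cell cannot be told apart.

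SPRY4, a Sprouty protein that acts upstream of RAS activation, gave intensities of 165.7 and 162.7 in -GFs, 261.1 and 258.5 with FGF2, and 148.9 and 177.8 with BMP4. The FGF2 pair was detected, with detection p of 0.00107 and 0.00321, and stood above the 4 other arrays. The other 4 values were undetected, with detection p between 0.119 and 0.261, and so give only an upper limit to the SPRY4 level there. Group means were log2 7.36 ± 0.06 in -GFs, 8.05 ± 0.03 with FGF2 and 7.36 ± 0.09 with BMP4 (SD, n = 2 each).

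With the undetected -GFs arrays set to the dimmest detected signal, SPRY4 had an FGF2 signal at least 1.37-fold higher. The log2 difference of the values as measured was 0.69, with 0.71 in replicate 1 and 0.67 in replicate 2, and takes the undetected -GFs signals at face value. It had a limma adjusted p of 0.0410 and did not reach the fold of the calling rule. Without regard to the fold, 6.03% of genes tested were higher with FGF2 at an adjusted p under 0.1. The SPRY4 probe entered the test only through the FGF2 arrays, where it was high, so its adjusted p is a description and is not read against that share. That adjusted p went over the threshold when either -GFs array was left out (0.137 and 0.117) and when either FGF2 array was (0.197 and 0.250). Under neqc, which subtracts the level of the undetected probes, the log2 fold change was 1.62 and SPRY4 was called, with limma's adjusted p = 0.0236.

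IL17RD had a pair of probes on the array, and they are given apart because levels of different probes cannot be set against each other. The first was detected on all 6 arrays, at 435.5 and 296 in -GFs, 257.4 and 283.1 with FGF2, and 223.5 and 308.6 with BMP4. In intensity the -GFs pair spanned the highest BMP4 value and was above both FGF2 arrays. Group means of this probe were log2 8.42 ± 0.19, 8.11 ± 0.15 and 8.06 ± 0.28 in the same order (SD, n = 2 each).

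Neither growth factor changed IL17RD past the test. The log2 fold change was -0.31 with FGF2 (95% interval -0.78 to 0.15, limma adjusted p = 0.392) and -0.36 with BMP4 (-0.83 to 0.11, adjusted p = 0.999). The difference came mostly from replicate 1, in which it was -0.55 with FGF2 and -0.69 with BMP4, against -0.07 and -0.03 in replicate 2. These intervals allow a fall of up to 0.78 and 0.83 on the log2 scale and so leave room for a modest difference.

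The second IL17RD probe, with 217.3 and 200.5 in -GFs, 193.2 and 182.5 with FGF2 and 162.7 and 243.7 with BMP4, was undetected on FGF2 replicate 2 and BMP4 replicate 1. The widest gap of this probe was between the BMP4 arrays themselves, which enclosed the other 4 values. Its log2 fold change was -0.13 with FGF2 (adjusted p = 0.741) and -0.02 with BMP4, fitted with limma over 16111 probes.

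SPRY2, the most studied Sprouty and a binding partner of the ubiquitin ligase CBL, had 1 probe, with intensities of 125.5 and 125.5 in -GFs, 136.5 and 142.2 with FGF2 and 119.5 and 134.9 with BMP4. Its detection p ran from 0.552 to 0.858, so the signal lay within that of negative control beads in all groups. The FGF2 pair was nonetheless above the other 4 arrays, all of them undetected. SPRED2, the paralog of SPRED1 with the same binding to neurofibromin, had 3 probes, none detected on any array.

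The SPRED2 probe with the highest -GFs values gave 156 and 176.8 in -GFs, 156.7 and 161.5 with FGF2, and 159.2 and 150.5 with BMP4. The second gave 130 and 137.4 in -GFs, 164.8 and 169.6 with FGF2, and 114.9 and 138 with BMP4, and the third 138.3 and 110.5, 128.3 and 144.7, and 118.6 and 149.4. In the second the FGF2 pair was, as for SPRY2, above the other 4 arrays, although still below the dimmest detected probe of any array, whereas the groups of the first and the third overlapped. Over the 3 probes the detection p ran from 0.0865 to 0.969. No fold is given for SPRY2 or SPRED2, since both sides of each comparison were undetected, and their levels were not detectable on this array rather than shown to be absent.

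With BMP4 none of the 3 members tested was called by limma, and none had an unadjusted p under 0.05, as did 1.81% of all genes. In this comparison 1 gene of 11872, 0.00842%, was called for BMP4 against -GFs in either direction. SPRED1 had a log2 fold change of 0.28 (95% interval -0.26 to 0.82, limma adjusted p = 0.999), with 0.19 in replicate 1 and 0.37 in replicate 2, and that of IL17RD is given above. With the replicate as a block, the IL17RD interval was -0.69 to -0.03 and its unadjusted p 0.0358 (limma adjusted p = 0.663), where 7.02% of all genes had an unadjusted p under 0.05. SPRY4 was undetected in both groups, so it has no fold in this comparison.

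FGF2 was then set against BMP4, which asks whether the growth factors differ from each other. The comparisons of FGF2 and of BMP4 with -GFs share the -GFs arrays. Here those arrays enter only through the normalization, the choice of probes and the estimate of the spread. SPRED1 was 3.29-fold higher with FGF2 than with BMP4, a log2 difference of 1.72 (95% interval 1.18 to 2.26, limma adjusted p = 0.0136), with 1.70 and 1.74 in the 2 replicates. It was the only member called, where 2.03% of all genes were called as higher with FGF2. The adjusted p was 0.121 without FGF2 replicate 1 and 0.105 without FGF2 replicate 2, so the call was lost when either was left out, while the log2 difference stayed between 1.54 and 1.90.

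SPRY4 was at least 1.38-fold higher with FGF2 than with BMP4, and the log2 difference of the values as measured, 0.69 (limma adjusted p = 0.0465) again sets FGF2 against undetected signals of a probe retained through FGF2 alone, and is not read against the 4.84% of genes that passed the adjusted p in this direction. Its adjusted p went to between 0.148 and 0.282 when any one of the FGF2 or BMP4 arrays was left out. IL17RD differed by 0.05 (95% interval -0.42 to 0.51, adjusted p = 0.924), less than the spread between its replicates. With 2 arrays per group an exact permutation test of a single gene cannot give a two-sided p below 0.333, so the fit across all genes carries these tests, and the number of arrays limits their precision.

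**Figure D2:**
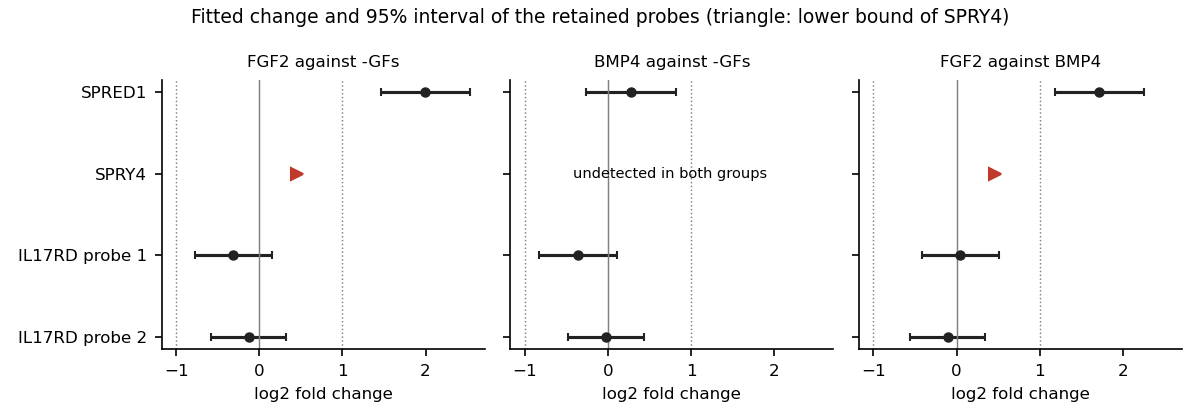
Fitted log2 fold change (horizontal axis) with its 95% interval for the probes retained, in the 3 comparisons, with dotted lines at a log2 fold change of 1 and -1 and triangles, in place of an interval, at the lower bound of SPRY4 (1.37-fold and 1.38-fold). The whole interval of SPRED1 lies above 1 for FGF2 against -GFs (1.46 to 2.54) and FGF2 against BMP4 (1.18 to 2.26), and all intervals of BMP4 against -GFs include 0 in this fit without the replicate block.

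**Figure D3:**
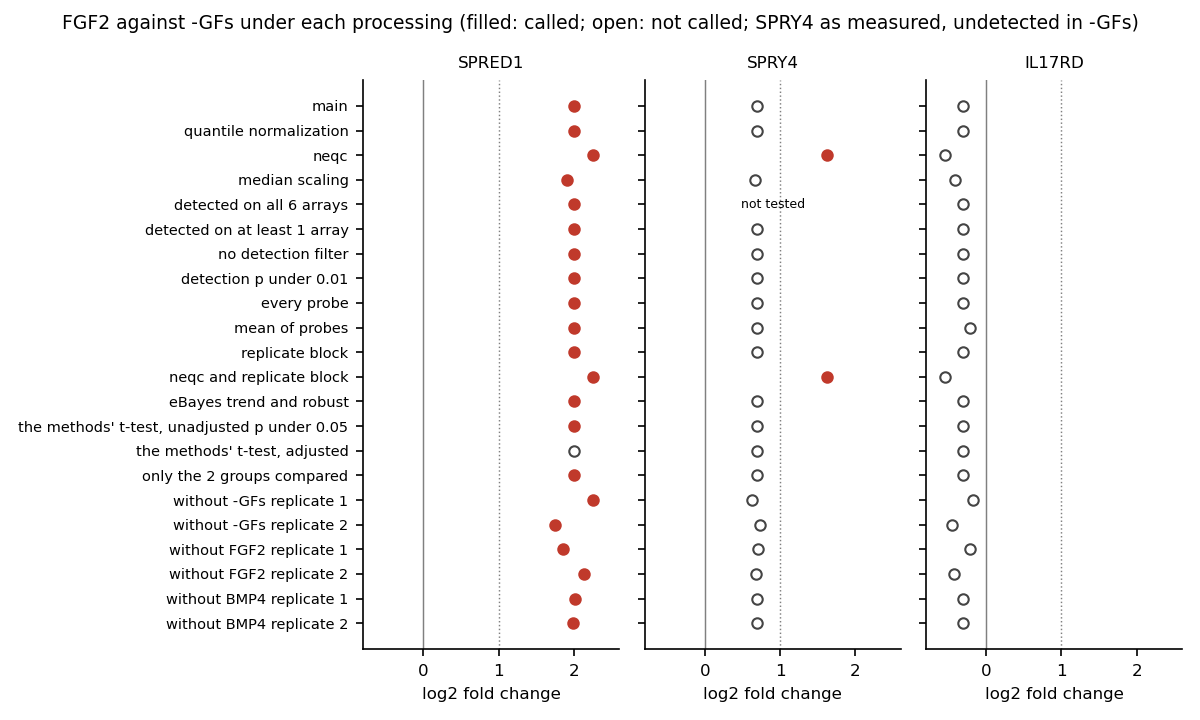
Log2 fold change of SPRED1, SPRY4 and IL17RD for FGF2 against -GFs (horizontal axis) under the processing reported (main) and each alternative that can alter the value or its test, filled where the gene was called. SPRED1 stays between 1.74 and 2.26, SPRY4, as measured against undetected -GFs signal, moves from 0.69 to 1.62 under neqc, and IL17RD is below 0 throughout.

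The plot of alternatives shows how far each member depends on the processing. SPRED1 was called for FGF2 against -GFs in all 6 fits that left out 1 array, with log2 fold changes of 1.74 to 2.26 and adjusted p up to 0.0898. In 4 of these fits 1 of the groups compared held a single array, which was assumed to vary like the arrays of the other groups. The value of SPRY4 was more sensitive to the background correction than to the choice of arrays.

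The genes most like each member over the 6 arrays were chosen by the root mean square difference of log2 values, each gene centred on its own mean, among tested genes that spanned at least 1 log2 unit. For SPRED1, which itself spanned 2.40, these were RAI14 (0.138), an actin binding protein, THBD (0.151), the endothelial thrombin receptor thrombomodulin, and IPMK (0.165), an inositol phosphate kinase. All 3 were detected on all 6 arrays, and their log2 fold changes with FGF2 were 1.75, 1.81 and 1.61.

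For SPRY4, whose span was 0.774, the nearest were LOC654842 (0.0830), the homeobox repressor TGIF1 (0.0865) and NMNAT2 (0.0936), an enzyme of NAD synthesis. For IL17RD, with a span of 0.692, they were the lipase PNPLA2 (0.251), the stress induced NUPR1 (0.253) and GSDMDC1 (0.255), each at a larger distance than for the other members. The spans of SPRY4 and IL17RD were under the 1 log2 unit required of candidates, so genes with spans as small were not eligible. The SPRY4 pattern also takes its undetected -GFs and BMP4 signals at face value. The likeness was picked from 1888 or 1889 candidates over 6 arrays, and is a description of these arrays.

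The other genes of the pathway were taken from 5 lists with 67 genes, of which 52 were tested. With FGF2, 10 rose and 2 fell by the calling rule, where 3.53% of all genes tested were called in either direction. The 10 include DUSP5 and ETV4, retained through the FGF2 arrays alone, so the count is not read against that share. With BMP4 none of the 52 was called in limma's fit, nor by the methods' t-test on unadjusted p, which called 8 of all 11872 genes. None had a limma unadjusted p under 0.05, as did 1.81% of all genes. With the replicate as a block 5 had, where 7.02% of all genes did, and none was called. The median log2 change over the 52 genes was 0.22 with FGF2 and -0.02 with BMP4. With detection required on all 6 arrays 8 of the list genes were called, where 382 of the 9707 genes tested were. Without FGF2 replicate 2, which leaves a single FGF2 array, fewer of the list genes and fewer of all genes were called. With the replicate as a block 10 rose and 2 fell as well.

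Among the paralogs outside the members, SPRY3 was detected on all arrays and had a log2 fold change of 0.45 with FGF2 (limma adjusted p = 0.271), and SPRED3 was undetected throughout. SPRY1 was not analysed here. Of the receptors and adaptors 12 of 16 were tested, and 2 fell. FGFR2, a receptor for FGFs, fell by 1.29 on the log2 scale (adjusted p = 0.0114), and GAB1, the docking protein that links GRB2 to SHP2 and PI3 kinase, fell by 1.06 (adjusted p = 0.0231). The genes not called that the rule of the largest mean signal names were SHC1, an adaptor that brings GRB2 to receptors (0.05), PTPN11, the gene of the phosphatase SHP2 (0.42), and the adaptor CRK (0.59).

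Of the RAS to ERK kinases and RAS GTPase activating proteins, 15 of 17 were tested and none was called with FGF2 by limma, where 3 had an unadjusted p under 0.05, as did 23.3% of all genes. Of these, ARAF, a RAF kinase, had -0.70 and passed the adjusted p only (limma adjusted p = 0.0582), and is named after its value was seen. MAP2K2, the gene of MEK2, had 0.18 and the GTPase activating protein RASA3 -0.47. Of the proteins that bind, modify or degrade Sprouty, Spred or Sef, 11 of 14 were tested and none was called by limma, where 5 had an unadjusted p under 0.05. PPP2CA, the catalytic subunit of the phosphatase PP2A, passed the adjusted p with 0.71 (0.0406), as did SH3KBP1, the CBL partner CIN85, with 0.91 (0.0991), also named after its value was seen. MKNK2, a kinase downstream of ERK, had -0.52 and CAV1, caveolin, 0.25.

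The list of genes that are induced along with FGF ligands or by ERK was where the called rises lay. Of its 17 genes 13 were tested and 10 rose with FGF2, where 2.28% of all genes tested were called as higher. The median log2 fold change was 2.52 over the 13 and -0.02 over all genes. They were the ERK phosphatases DUSP4 (3.19), DUSP5 (3.13, listed as LOC240672) and DUSP6 (3.55), the ETS factors ETV4 (1.65) and ETV5 (1.98), the zinc finger factors EGR1 (4.19), EGR2 (4.13) and EGR3 (3.43), and IER3 (2.52) and PHLDA1 (1.92). Their adjusted p lay between 0.00110 and 0.0176. DUSP5, ETV4 and MYC, which was not called, were detected on both FGF2 arrays but on only 1 of the 2 -GFs arrays. They passed the filter through FGF2 alone and their values rest partly on undetected signal. The count of 10 includes DUSP5 and ETV4, and the median of the list includes all of them. Neither is therefore read against its value over all genes. CCND1, cyclin D1, with 0.71, and the ETS factor ETV1, with 0.59, passed the adjusted p only, and MYC had 0.40. The SPRED1 rise of 2.0 fell within the range of the 10 called genes of this list and the SPRY4 value of 0.69, as measured, below it, as the plot by list shows.

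**Figure D4:**
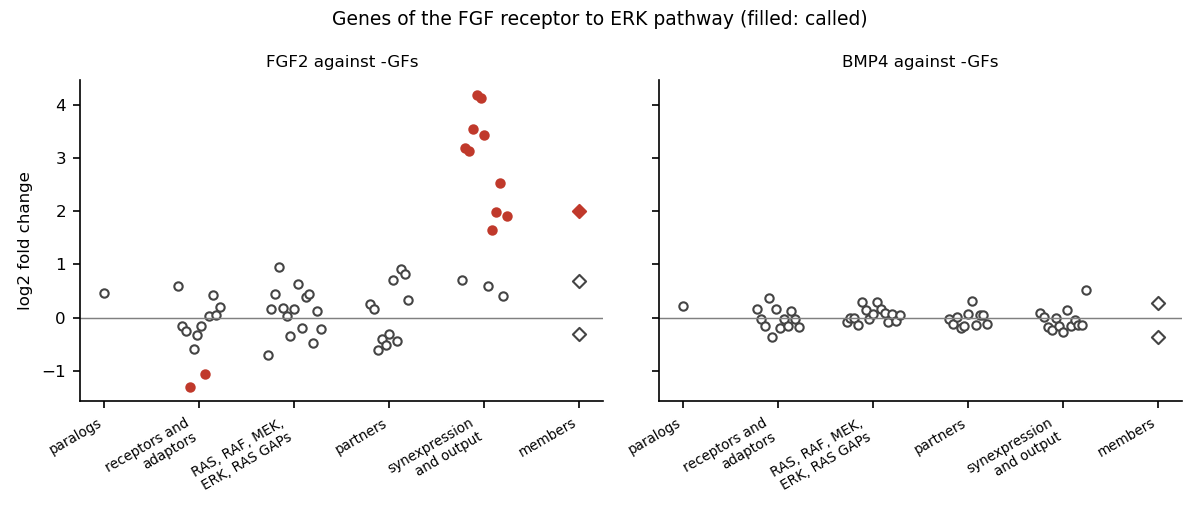
Log2 fold change (vertical axis) of the tested genes of each pathway list (circles) and of the members (diamonds) with FGF2 and with BMP4, filled where called, with SPRY4 left out for BMP4. With FGF2 10 genes of the synexpression list rose by 1.65 to 4.19 and 2 adaptor or receptor genes fell, and with BMP4 every gene stayed between -0.36 and 0.52.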

How the data were processed

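Expression was measured on 6 Illumina MouseWG-6 v2.0 arrays, 2 for each of -GFs, FGF2 and BMP4, grouped by the labels. The authors deposited linear intensities, each a mean over the beads of 1 probe, which are not normalized between arrays, and a detection p for each. The methods name BeadStudio for the scans, and the submitters' processing notes name GenomeStudio 2011.01. Left out were 9 columns with no header and 6 stray lines at the end. Genes carry the names of the array design, and older names were matched through RefSeq (GRCm38.p6).

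Cubic spline normalization, the procedure of the methods, was written in R 4.3.3 with 452 quantiles and followed by log2. To be kept, a probe needed detection (p under 0.05) by the whole pair of arrays in 1 group or more. The brightest probe on average stood for its gene. The model, with 3 residual degrees of freedom, covered the 3 groups together and used lmFit and eBayes of limma 3.58.1. Adjusted p are Benjamini-Hochberg values over the 11872 genes. A gene was called with a log2 fold change over 1 in size and an adjusted p under 0.1. Motifs were searched with Python 3.11.15. The fitting was tried on simulated arrays with independent noise and planted changes larger than the calling fold. Paired replicates and smaller changes were not covered.

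Where a probe was undetected on both arrays of a group, the bound compares the mean of the other group with, per array, the higher of the dimmest detected signal and the probe's own. Depth does not apply to arrays, and their number limits the precision.

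The members and lists were chosen with earlier results of these data known. Named were all probes of the members, the pathway genes called, up to 3 of each list not called with the largest mean, and for each member tested the 3 genes nearest in pattern. Some genes of the lists are counted but not reported here by name. The lists were paralogs, receptors and adaptors, RAS to ERK kinases with RAS GTPase activating proteins, partners of the members, and FGF and ERK output genes.

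The labels put 1 well of each group in a biological replicate, and deviations of same-numbered arrays from their group means correlated at 0.602, 0.741 and 0.579, so the numbers pair the arrays. The fit with the replicate as a block was an alternative, as were other normalizations (quantile, neqc, median scaling), detection filters, ways to combine probes, thresholds, eBayes settings, the methods' t-test and leaving out each array. That unpaired t-test stands in the paper's general statistics section, while for the arrays the paper names LIMMA. Its use on the arrays and the adjustment of its p were added here. The comparisons with -GFs share their control arrays.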

Additional observations from a re-analysis of the deposited data

How the results depend on the processing

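For FGF2 against -GFs, 1 member was called as reported. The count was 2 under neqc, 2 under neqc with the replicate block and 2 with no threshold on the fold. SPRY4, whose probe was retained through the FGF2 arrays alone, was the second in each. Over all genes these settings called 794, 1143 and 1402 of 11872, against 419 as reported. It was 0 by the methods' t-test after adjustment, which called no gene at all. For FGF2 against BMP4, where 1 member was called too, these settings gave the same counts of 2, 2, 2 and 0 (640, 987 and 1076 of all genes for the first 3, against 365), and leaving out each array gave 0 to 1. For BMP4 against -GFs the count was 0 under all 24 alternatives. By the methods' t-test without adjustment SPRED1 was called for FGF2 against -GFs, where 326 of the 11872 genes were called.

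The 12 pathway genes called with FGF2 became 0 by the methods' t-test after adjustment and 7 to 12 when each array was left out, the 7 being without FGF2 replicate 2. The fit with the replicate as a block, in which same-numbered arrays are paired and 2 residual degrees of freedom remain, changed no call of a member. It gave a limma adjusted p of 1.26e-08 for SPRED1 with FGF2. For SPRY4 the value was 0.000982, a description only, since that probe was retained through the FGF2 arrays alone. An alternative was chosen after seeing the data, the replicate block with no threshold on the fold. In it 2 members passed for FGF2 against -GFs and 2 for FGF2 against BMP4, where 4478 and 4049 of the 11872 genes passed. SPRY4 was the second member in both, with the same limit. Of the 52 pathway genes 35 passed for FGF2 against -GFs.

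IL17RD for FGF2 against BMP4, 0.05 as reported and not past the test, turned to -0.028 with the mean of its probes and ran from -0.15 to 0.25 when each array was left out. The cause of these changes was not tested. SPRY4 was not tested where detection on all 6 arrays was required. Signal close to background limits SPRY4, the second IL17RD probe, SPRY2 and SPRED2.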
